A study of Mus musculus with 17 samples.

Results

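Leydig cells are the steroid-producing cells between the testis cords. Luteinizing hormone acts on them through a receptor coupled to cyclic AMP, cholesterol is carried into the mitochondria, and a short chain of enzymes turns it into androgen. At birth the mouse testis holds the fetal Leydig cell population, and the adult population arises later in postnatal life. In the fetal mouse testis the last step, from androstenedione to testosterone, takes place in Sertoli cells, the supporting cells of the cords.

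A set of 10 genes of this pathway, of the 23980 genes listed in each deposited table, were followed by name in poly(A) RNA from testes that lack Pld6, Dnmt3l or both. They were Nr5a1, which encodes the transcription factor SF-1, Lhcgr, the luteinizing hormone receptor, Scarb1, a receptor for high-density lipoprotein cholesterol, Star, which moves cholesterol into mitochondria, the enzyme genes Cyp11a1, Hsd3b1, Hsd3b6, Cyp17a1 and Hsd17b3, and Insl3, a peptide hormone of Leydig cells. They were taken by name as genes of the pathway, and all 10 were found in both tables. Pld6 encodes a nuclease of the outer mitochondrial membrane that cuts the precursors of PIWI-interacting RNAs, and Dnmt3l a cofactor of the DNA methyltransferases of male germ cells. Neither is a gene of the steroid pathway.

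Of the 17 libraries, 11 came from whole testes at postnatal day 0 (P0), with 2 wild-type (WT) libraries, 4 Pld6 knockout (KO), 2 Dnmt3l KO and 3 double KO (DKO), read as pairs of 100-bp reads. The other 6 came from leptotene/zygotene (L/Z) spermatocytes, the germ cells of early meiotic prophase, purified by FACS from testes 3 to 4 weeks after birth, with 2 WT, 2 Pld6 KO and 2 Dnmt3l KO libraries and single 50-bp reads. All 17 libraries carry the strain label C57BL6/J. No DKO library of L/Z cells was analysed here. The labels call the libraries biological replicates but do not say how many animals each holds, and p-values then measure the spread between these libraries. The mutant lines had been backcrossed to C57BL/6J, and no cell-type-restricted allele is named for them, so somatic cells of the testis carry the mutations too. Depth ran from 9900346 to 23498968 fragments at P0 and from 5194238 to 14578341 at L/Z. Whole testis RNA is a mixture, so fewer Leydig cells and less RNA of a gene per Leydig cell cannot be told apart in it. The library labels were checked on the deleted genes. Pld6 had 40 and 57 fragments in the WT libraries and 0 to 2 in the 7 P0 libraries labelled Pld6 KO or DKO, and Dnmt3l had 53 and 72 in WT and 0 to 3 in the 5 labelled Dnmt3l KO or DKO. Dnmt3l also ran from 6 to 145 fragments within the 4 Pld6 KO libraries. At L/Z, WT replicate 1 and Pld6 KO replicate 1 stood apart, with 8.27% and 8.06% of their fragments in the 45S pre-ribosomal RNA gene against 0.134% to 0.301% in the other 4. At P0 this share was 0.0% in all 4 Pld6 KO libraries and 0.114% and 0.104% in WT. It was 0.656% and 0.25% in the Dnmt3l KO pair, and 4.43%, 0.981% and 0.318% in DKO. The Pld6 KO libraries thus lay below all other P0 libraries in this share. Its part in the comparisons with Pld6 KO was not tested.

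Hsd3b1 and Hsd3b6 need their sequences to be told apart. Both encode 3-beta-hydroxysteroid dehydrogenase, Hsd3b1 as the form of fetal and adult Leydig cells and Hsd3b6 as a form of the adult population, and they lie on the minus strand of chromosome 3 in GRCm38, Hsd3b1 at chr3:98842356-98859794 and Hsd3b6 at chr3:98805504-98814443. Their coding sequences are equally long, 1119 bases, and 1007 positions (90.0%) are identical when set side by side without gaps. The first 30 coding bases, shown to give the degree of likeness, are at chr3:98857935-98857964 and chr3:98811017-98811046 (minus strand, GRCm38, GENCODE M21 models). Capitals mark the 4 bases that differ.
Hsd3b1: atgGctggAtggagctgcctggtGacAgga
Hsd3b6: atgCctggGtggagctgcctggtAacTgga
Elsewhere the genes are the same over longer stretches. The longest is 72 bases, and its middle 30 bases, without a difference, are at chr3:98856004-98856033 in Hsd3b1 and chr3:98807775-98807804 in Hsd3b6. They are shown because a read that falls inside this stretch cannot be given to either gene.
Hsd3b1 and Hsd3b6: gtcattcccaggcagaccatcctagatgtc
Of the 1753 windows of 50 bases in the Hsd3b6 transcript, 38 (2.17%) also occur in an Hsd3b1 transcript, and of its 1703 windows of 100 bases 0 (0.0%) do. So a 50-bp read of the L/Z libraries can be ambiguous between the genes, and a perfectly read 100-bp read of the P0 libraries cannot.

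Promoters were read from the RefSeq table for GRCm38.p6, 250 bases before to 50 bases after each start, which held 7 promoters of 6 of the 10 genes. It held none for Star, Cyp17a1, Nr5a1 and Scarb1, so their promoters were not searched. The letters AAGGTCA, a binding motif of SF-1, were searched on both strands and were in 0 of these 7 promoters, against 4.72% of all 32851 promoters. At such a share 7 promoters are too few for an absence to mean much, and only these exact letters were searched. TGATAA was in 0 of the 7 (9.05% of all). AGATAA, which like TGATAA is bound by GATA factors, was in 1 promoter each of Hsd3b6 and Hsd3b1 (11.2% of all promoters). The matches, in capitals, are at chr3:98814457-98814486 and chr3:98859911-98859940 (minus strand), with the first base of the match 31 bases before the start in Hsd3b6 and 134 bases before it in Hsd3b1, where the match is on the opposite strand.
Hsd3b6: tggtagcagccaAGATAAaaagtcctgtcc
Hsd3b1: agttaaaaaaaaTTATCTccttgattctca
These matches describe the letters of the windows and not a bound site.

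Newborn testes held RNA of all 10 genes. By FPKM, which divides fragments by transcript length and so allows genes to be compared, Hsd3b1 had the highest mean of the 10 genes in every genotype, 437 ± 29.1 (SD, n = 2) in WT. Insl3 followed at 271 ± 57.7, then Hsd17b3 at 219.7 ± 11.6, Cyp11a1 at 219.0 ± 30.2, Cyp17a1 at 126 ± 6.26, Nr5a1 at 122 ± 5.88 and Scarb1 at 96.1 ± 26.5. Below these came Star at 23.2 ± 4.69, Lhcgr at 7.09 ± 0.581 and Hsd3b6 at 0.561 ± 0.650 FPKM (all SD, n = 2). Of neighbours in this WT order, Hsd17b3 and Cyp11a1 overlapped in their library values, as did Cyp17a1 and Nr5a1, and the other neighbours did not. Lhcgr ranked 9 and Hsd3b6 10 in all 4 genotypes. The middle of the order moved, as Cyp17a1 had rank 5 in WT and in the Pld6 mutant, 6 in Dnmt3l KO and 7 in DKO. In DKO its values overlapped those of Scarb1 above it and Star below it. Insl3 lies inside Jak3 on the same strand (chr8:71689252-71690577 within chr8:71676383-71690577), so its estimate shares fragments with Jak3, which had 62.6 to 162.5 estimated fragments per P0 library.

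For comparisons between libraries, fragments were scaled to library size as CPM (counts scaled to library totals, with TMM factors), which do not correct for length. Values are given in replicate order. SF-1, the product of Nr5a1, is a regulator of steroidogenic genes that Sertoli cells also express. Nr5a1 had 334 and 353 CPM in WT, 269.8, 366, 309 and 265 in Pld6 KO libraries, 229 and 291 in the Dnmt3l KO pair, and 304, 238 and 249 in DKO. Both WT libraries lay above both Dnmt3l KO and all 3 DKO libraries, while Pld6 KO overlapped WT. The whole range over 11 libraries was 1.59-fold.

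Lhcgr, through which luteinizing hormone drives the cells, had 16.3 and 18.1 CPM in WT and 13.4, 17.7, 24.0 and 30.5 in Pld6 KO libraries. In Dnmt3l KO it had 15.1 and 24.2 CPM, and in DKO 13.0, 13.3 and 12.1. The 3 DKO libraries were close together and lay below every library of the other genotypes, narrowly so for Pld6 KO replicate 1.

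Scarb1 takes up the cholesterol that the cells use and is expressed in other testis cells too. It had 269 and 179 CPM in WT, 169, 231, 279 and 251 in Pld6 KO libraries, 124 and 158 in the Dnmt3l KO pair, and 264, 137 and 161 in DKO. The Dnmt3l KO libraries lay below both WT libraries, and DKO overlapped WT.

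Star had 78.3 and 103 CPM in WT and 94.6, 130.0, 222 and 253 in Pld6 KO libraries. The values were 55.8 and 140.4 in the Dnmt3l KO pair and 90.5, 68.2 and 73.6 in DKO. All 4 Pld6 KO libraries lay above all 3 DKO libraries, but the lowest of them lay below WT replicate 2.

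Cyp11a1, whose product cleaves the side chain of cholesterol in the first step of the pathway, had 326 and 389 CPM in WT and 335, 587, 354 and 892 in Pld6 KO libraries. It had 302 and 604 CPM in the Dnmt3l KO pair and 473, 281 and 244 in DKO. Every mutant genotype overlapped WT.

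Hsd3b1 had 791 and 707 CPM in WT, 1025, 1136, 752 and 1380.2 in Pld6 KO libraries, 1313 and 1561 in the Dnmt3l KO pair, and 765, 1093 and 791 in DKO. Both Dnmt3l KO libraries lay above all WT and DKO libraries. Hsd3b6 was near the detection limit, with 2 and 20 fragments in WT, 7, 17, 13 and 21 in Pld6 KO libraries, 44 and 16 in the Dnmt3l KO pair, and 8, 20 and 16 in DKO. The ratio of Hsd3b6 to Hsd3b1, both in FPKM, ran from 0.000221 to 0.00303 over the 11 libraries.

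Cyp17a1, the enzyme that makes the androgen precursors, ranged widely. It had 209 and 219.7 CPM in WT, 94.5, 226, 447 and 682 in Pld6 KO libraries, 118 and 152 in the Dnmt3l KO pair, and 194, 53.0 and 36.0 in DKO. All Dnmt3l KO and DKO libraries lay below both WT libraries, and Pld6 KO held the highest library and also 1 below Dnmt3l KO.

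Hsd17b3, the Sertoli cell enzyme of the last step at this age, was the steadiest with Nr5a1. Its values were 262 and 237 CPM in WT, 275, 236, 231 and 260.3 in Pld6 KO libraries, 324 and 272 in the Dnmt3l KO pair, and 199.7, 293 and 239.7 in DKO. The range over all libraries was 1.62-fold, and Dnmt3l KO alone lay apart from WT, above it.

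Insl3, needed for the descent of the testis, had 100.4 and 129 CPM in WT and 138, 246, 81.8 and 369.8 in Pld6 KO libraries. It had 158 and 184 CPM in the Dnmt3l KO pair and 133, 229.9 and 107 in DKO. Pld6 KO held both the lowest and the highest library.

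**Figure D1:**
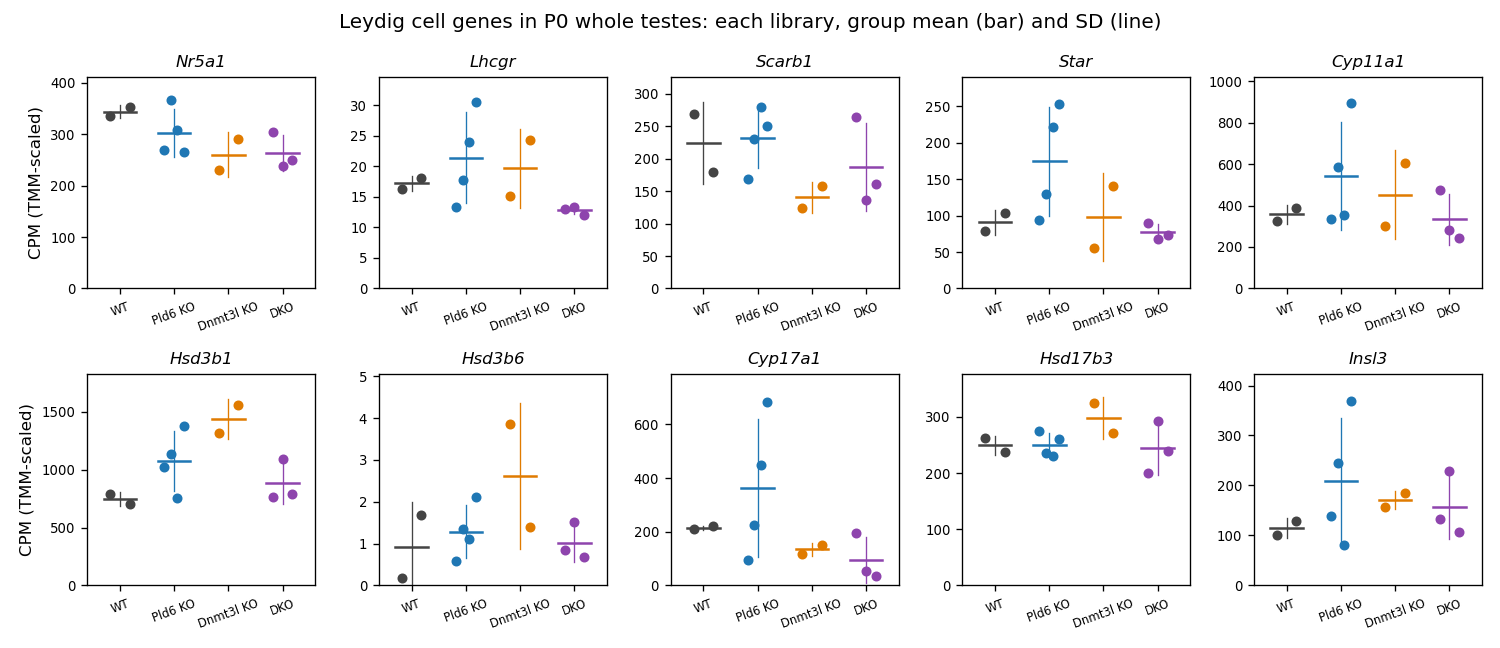
CPM (TMM-scaled, linear axis from 0) of the 10 genes in the 11 P0 libraries, by genotype. Points are libraries, horizontal bars group means and vertical lines SDs (cut at 0); Cyp17a1 in Pld6 KO runs from 94.5 to 682 CPM, while Hsd17b3 stays between 199.7 and 324 CPM in all genotypes.

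The comparison of Pld6 KO with WT asked whether loss of the piRNA enzyme goes with a change of these somatic genes. Of the 10 genes 9 had a higher and 1 (Nr5a1) a lower fitted level in Pld6 KO, and the median log2 fold change was 0.49, with 0.02 over all 15901 genes tested. None (0) passed edgeR's quasi-likelihood test at a Benjamini-Hochberg adjusted p under 0.05 with a change over 2-fold, which 0.00629% of all genes passed, and DESeq2 called 0 as well. At an unadjusted p under 0.05 stood 2, both higher, against 5.06% of all genes and 3.14% as higher. These were Star, with a log2 fold change of 0.95 ± 0.39 (SE, 95% interval 0.11 to 1.79, adjusted p = 0.963 by edgeR), and Hsd3b1, with 0.52 ± 0.24 (adjusted p = 0.963 by edgeR). For Insl3 the log2 fold change was 0.86 ± 0.46 and for Cyp17a1 0.76 ± 0.67 (SE), with intervals of -0.13 to 1.86 and -0.69 to 2.21. For 0 of the 10 genes the Pld6 KO libraries lay wholly above or below WT, as 11.5% of all genes did. Marker genes of the interstitial mesenchyme summed to 7952 and 9579 CPM in WT and to 10050.3 to 19289.7 in Pld6 KO libraries. They were 9 genes, among them Col1a1, Col1a2, Col3a1, Dlk1, Nr2f2, Pdgfra and Tcf21. None of the 9 was at 0 in any group. Pld6 KO replicate 4 had the highest sum of these markers and also the highest sum over the 10 Leydig cell genes, 4385 CPM against 2336 and 2385 in WT. Among the 9 mesenchyme markers, Nr2f2 did not follow that sum. It had 238 and 217 CPM in WT and 286, 321, 256 and 220 in Pld6 KO libraries. The part of this mixture in the gene values was not tested.

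The comparison of Dnmt3l KO with WT asked the same of the methylation cofactor. Of the 10 genes 7 had a higher and 3 a lower fitted level, with a median log2 fold change of 0.23 (0.03 over all genes tested). By edgeR and by DESeq2 0 were called, as were 0.0% of all genes by edgeR. At an unadjusted p under 0.05 stood 2 (12.9% of all genes): Hsd3b1, at 0.94 ± 0.27 on the log2 scale (SE, 95% interval 0.35 to 1.53, adjusted p = 0.285 by edgeR), and Scarb1, at -0.67 ± 0.31 (adjusted p = 0.386 by edgeR). The adjusted p of Hsd3b1 ran from 0.0537 to 0.603 over the 9 other settings of the fit. Libraries did not overlap for 3 genes that were higher (Hsd17b3, Hsd3b1 and Insl3) and 3 that were lower (Cyp17a1, Nr5a1 and Scarb1), but with 2 libraries against 2 the same held for 49.6% of all genes. Hsd3b6 had the largest fitted difference, 1.49 ± 0.82 (SE), from 22 fragments in WT and 60 in the Dnmt3l KO pair. Dnmt3l KO replicate 1 held 44 of these 60.

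In the DKO compared with WT, 3 genes had a higher and 7 a lower fitted level, and the median log2 fold change was -0.17 (0.01 over all genes). Again 0 were called by edgeR (0.0126% of all genes) and by DESeq2, and 0 stood at an unadjusted p under 0.05 (7.97% of all genes). Cyp17a1 had the largest difference, -1.19 ± 0.68 on the log2 scale (SE, 95% interval -2.66 to 0.27). Its libraries did not overlap with WT, nor did those of Lhcgr (-0.43 ± 0.30) and Nr5a1 (-0.38 ± 0.19), all lower in DKO, as 13.4% of all genes were (29.0% in either direction). The Cyp17a1 value was -2.27 without DKO replicate 1 and -0.82 without DKO replicate 3. The sum of the Sertoli cell markers was lower in every DKO library, 4482 to 5482 CPM against 6732 and 6807 in WT. Of these 19 markers 4 were lower and 1 higher at an unadjusted p under 0.05 (2.84% and 5.14% of all genes). The list median was -0.41. The sum of the interstitial mesenchyme markers was higher in every DKO library, 11590 to 14087 against 7952 and 9579 CPM. Abundant genes weigh most in these sums. Nr2f2, 1 of the 9 mesenchyme markers, overlapped between DKO (203, 291 and 266 CPM) and WT (238 and 217). The part of these mixtures in the gene values was not tested.

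The DKO was also set against each single mutant, which shares its libraries with the comparisons above. Against Pld6 KO all 10 genes had a lower fitted level in DKO, with a median log2 fold change of -0.38 (-0.0009 over all genes). None (0) was called by edgeR (0.0% of all genes) or by DESeq2, and 3 stood at an unadjusted p under 0.05 (6.02% of all genes, 2.55% as lower). Cyp17a1 differed by -1.95 ± 0.61 (SE, 95% interval -3.27 to -0.63), Star by -1.18 ± 0.34 (-1.91 to -0.44) and Lhcgr by -0.74 ± 0.26 (-1.29 to -0.19), each with an adjusted p of 0.79 by edgeR. For Star and Lhcgr the 3 DKO libraries lay wholly below the 4 Pld6 KO libraries, as 3.04% of all genes did (6.35% in either direction). Leaving out each library in turn kept all these differences negative, from -3.03 to -1.45 for Cyp17a1, -1.38 to -0.94 for Star and -0.91 to -0.52 for Lhcgr. Against Dnmt3l KO, 8 of the 10 genes were lower in DKO (median -0.39, against -0.01 over all genes), with 0 called by edgeR (0.0755% of all genes) and by DESeq2. Hsd3b1 stood at an unadjusted p under 0.05, as 17.8% of all genes did, with -0.70 ± 0.24 (SE, adjusted p = 0.175 by edgeR). For Hsd3b1 and Lhcgr the libraries of these genotypes did not overlap, as for 38.1% of all genes.

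The departure from additivity asks whether the DKO differs from what the 2 single-mutant effects add up to on the log2 scale. It was negative for 8 of the 10 genes, with a median of -1.02 against -0.04 over all genes. By edgeR and DESeq2 0 passed an adjusted p under 0.05 (0.0% of all genes by edgeR), and 3, all negative, stood at an unadjusted p under 0.05 (10.9% of all genes, 4.45% as negative). Those were Hsd3b1 at -1.22 ± 0.34 (SE, adjusted p = 0.344 by edgeR), Star at -1.29 ± 0.55 and Lhcgr at -0.93 ± 0.42. With each library left out Star ran from -1.81 to -0.45 and Lhcgr from -1.23 to -0.53. Both lowest values came without Dnmt3l KO replicate 1 and both highest without Dnmt3l KO replicate 2. For Hsd3b1 the adjusted p was 0.0516 to 0.855 over the 7 other settings, and 0.0516 was the smallest adjusted p of any of the 10 genes over all settings and comparisons at P0. Nr5a1 at 0.20 ± 0.26 and Scarb1 at 0.36 ± 0.39 were the 2 with a positive value, each smaller than its SE.

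**Figure D2:**
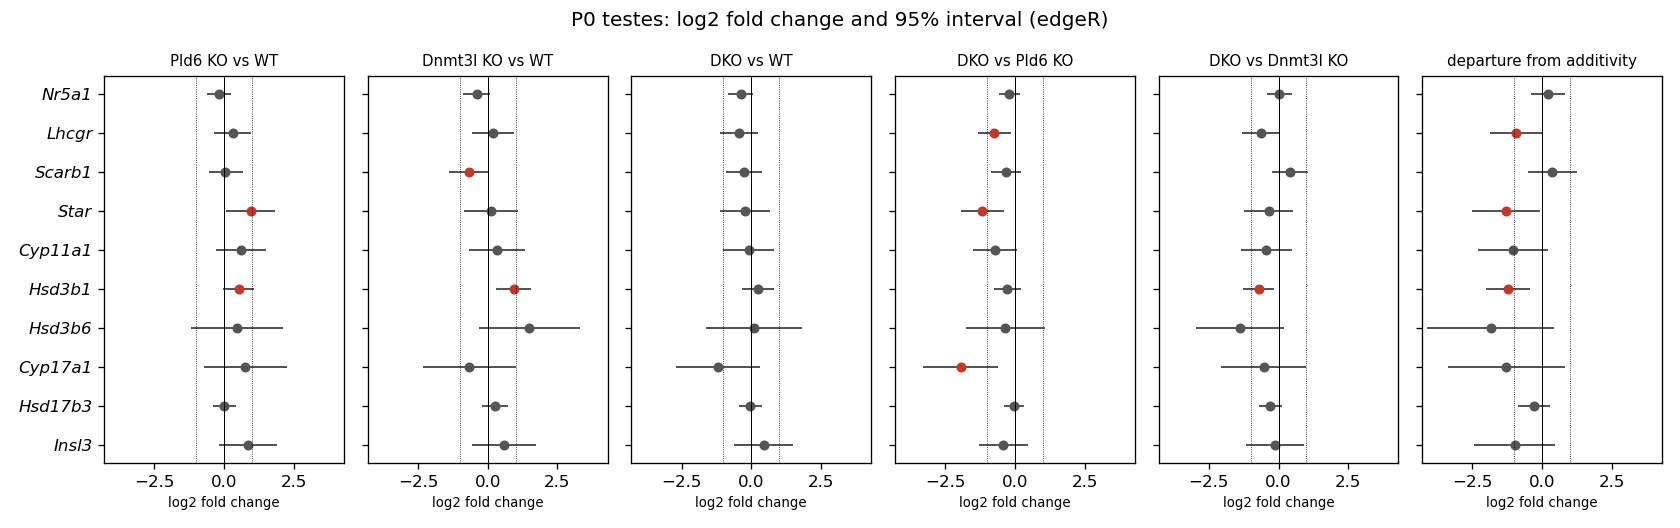
Log2 fold change (points) and 95% interval (lines) of the 10 genes in 5 comparisons of P0 genotypes and in the departure from additivity, from edgeR. Dotted lines mark a 2-fold change and red points an unadjusted p under 0.05; no point passed the adjusted threshold, and in DKO compared with Pld6 KO all 10 points lie left of 0, from -0.04 to -1.95.

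Spread between libraries of the same genotype set these genes apart from each other. Over 12547 genes with a mean of at least 50 fragments, the median within-genotype SD of log2 CPM was 0.24 (7 residual degrees of freedom). Cyp17a1 had 1.06, more than 99.6% of those genes, and Insl3 had 0.70, more than 97.9%. Star and Cyp11a1 had 0.58 each, more than 96.2%. Lhcgr with 0.39, Scarb1 with 0.38 and Hsd3b1 with 0.29 were less variable, and Nr5a1 with 0.20 and Hsd17b3 with 0.18 lay below the median. Hsd3b6 had 0.92, but at its few fragments counting error enters this value and it was not ranked. From the lowest to the highest library Cyp17a1 ranged 18.9-fold, against a median of 1.79-fold over all genes compared.

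**Figure D3:**
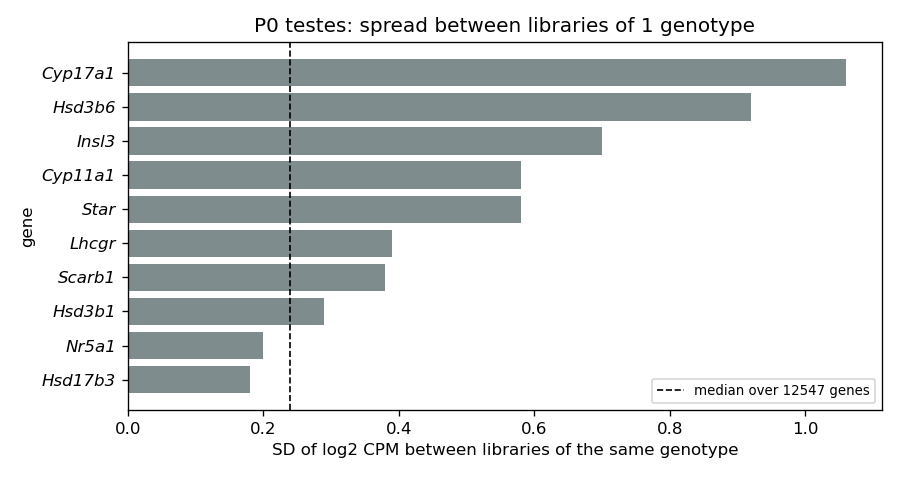
Within-genotype SD of log2 CPM over the 11 P0 libraries for each of the 10 genes (bars, from 0). The dashed line is the median over 12547 genes, 0.24; Cyp17a1 at 1.06 is the longest bar, and Nr5a1 at 0.20 and Hsd17b3 at 0.18 lie below the line.

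The variable genes did not all move together. Across the 11 P0 libraries, Pearson's r of log2 CPM between Star and Lhcgr was 0.87 (Spearman's rho 0.81, and r 0.68 without the 2 libraries farthest from the median of Star), and r of their deviations from the genotype means was 0.95. For Cyp17a1 and Lhcgr r was 0.81 (rho 0.77, and 0.77 without the 2 farthest), and for Star and Cyp17a1 0.79 (rho 0.77), which dropped to 0.51 without the 2 farthest. Hsd3b1 went with Insl3, with r 0.75 (rho 0.80, and 0.84 without the 2 farthest) and 0.91 within genotypes, but not with Star (0.16) or Cyp17a1 (0.05). Hsd17b3 ran against Scarb1, with r -0.71 (rho -0.75, and -0.52 without the 2 farthest), and against Nr5a1, with -0.61. These 45 pairs share the same libraries, their scaling and their mixture of cells, so the values are descriptions of these 11 libraries. The ratio of Star to Lhcgr, both in FPKM, stayed between 2.31 and 5.76 (2.50-fold), while that of Cyp17a1 to Hsd3b1 ran from 0.0459 in a DKO library to 0.599 in a Pld6 KO library (13.1-fold). Within the pair of WT libraries the second ratio was 0.266 and 0.313, and in Dnmt3l KO 0.0905 and 0.0981.

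**Figure D4:**
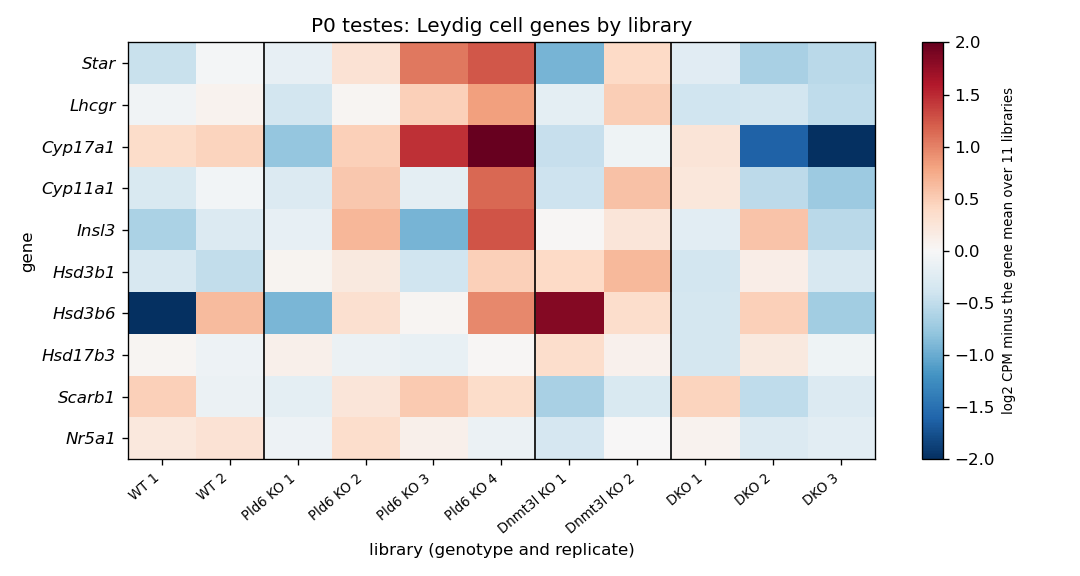
Log2 CPM minus the gene's mean over the 11 P0 libraries (colour, cut at -2 and 2), by gene and library. Star and Cyp17a1 are highest in Pld6 KO replicates 3 and 4, whereas Insl3 and Hsd3b1 are low in replicate 3 and high in replicate 4.

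The summed marker genes of other cell types were compared with each gene across the same libraries. Insl3 had r 0.69 (rho 0.57) with the summed interstitial mesenchyme markers and Cyp11a1 0.57 (rho 0.29). Within genotypes these were 0.81 and 0.80, and Hsd3b1 had 0.77. Whether Leydig cells themselves express some of these markers, such as Dlk1, was not tested. The summed Sertoli cell markers, 19 genes of which none was at 0, ran from 4482 to 6807 CPM and had r from -0.21 to 0.48 with the 10 genes. Hsd17b3, a Sertoli cell gene at this age, had r 0.15 with them. Prospermatogonial markers, 14 genes with none at 0, summed to 141 to 560.2 CPM, and Pld6 KO replicate 1 was lowest. The part of these mixtures in the values of the 10 genes was not tested.

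Likeness to the 10 genes was measured as Pearson's r across the 11 P0 libraries. It was taken between each of 12538 other genes and the mean of the 10 centred log2 CPM values. That mean was highest in Pld6 KO replicate 4 (0.81) and lowest in DKO replicate 3 (-0.60). Genes were not scaled to equal spread, so those with a wide spread, such as Cyp17a1, Hsd3b6 and Insl3, weigh most in it. Counting error of Hsd3b6 enters it too. The most similar gene was Cyp11b1, with r 0.941 and rho 0.90, and 0.892 to 0.962 when each library was left out. Cyp11b1 encodes 11-beta-hydroxylase, an enzyme of the adrenal cortex that is also found in the fetal mouse testis. It had 1.53 and 4.03 CPM in WT, 1.32, 6.99, 7.19 and 24.7 in Pld6 KO libraries, 2.10 and 9.20 in the Dnmt3l KO pair, and 4.27, 1.36 and 1.47 in DKO. Its highest library was Pld6 KO replicate 4, as for Star, Cyp11a1, Cyp17a1, Insl3 and Lhcgr. The others of the 10 most similar were Tm7sf2, a sterol reductase of cholesterol synthesis, Cdk5rap1, Glb1, Fam64a, Ttll7, Dnah1, 1110008L16Rik, Dpt and Thbs4, with r from 0.898 to 0.845. When r was computed from deviations from the genotype means, 0 of these 10 stayed among the 10 most similar, with Tspan8 first at 0.987 and Cyp11b1 at rank 11 with 0.933. Of the other 9 genes of a list of 10 adrenal genes, Cyp11b2, Th and Dbh had 3 or fewer fragments in every P0 library. The other 6 were present, Pnmt with 182 to 505 fragments, Akr1b7 with 180 to 348, Cyp21a1 with 46 to 288, Mrap with 34 to 72, Ddc with 22 to 48 and Mc2r with 11 to 51. Pnmt and Ddc, like Th and Dbh, are genes of the chromaffin cells. Cyp21a1 was highest in Dnmt3l KO replicate 2 and not in Pld6 KO replicate 4.

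Other genes of the pathway were read from 4 lists at P0: redox partners and further steroid enzymes (21 of 22 listed and tested), cholesterol synthesis and supply (22 of 22), regulators of Leydig cells (31 of 31) and further Leydig cell markers (25 listed, 23 tested). By edgeR 0 genes of the 4 lists were called in any of the 6 comparisons. In Pld6 KO compared with WT, 2 partners, 1 cholesterol gene and 3 markers were higher at an unadjusted p under 0.05, and 2 regulators lower, where 3.14% of all genes were higher and 1.92% lower. Among them Fabp3, a fatty acid binding protein, had a log2 fold change of 0.71 ± 0.19, and Por, the electron donor of microsomal P450 enzymes such as Cyp17a1, 0.41 ± 0.16 (SE). Dhh, the hedgehog signal from Sertoli cells on which fetal Leydig cells depend, had -0.56 ± 0.21, and Pdgfa -0.50 ± 0.17, each with an adjusted p of 0.963 by edgeR. Dhh is also 1 of the 19 Sertoli cell markers, whose sum was 5451 to 5793 CPM in the 4 Pld6 KO libraries and 6732 and 6807 in WT, with 5 of the 19 lower and 1 higher at an unadjusted p under 0.05. The part of this in the Dhh value was not tested. The list medians were 0.06, -0.09, -0.05 and 0.09, against 0.02 over all genes.

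In DKO compared with WT, the cholesterol genes had a list median of -0.31, with 5 lower and 0 higher at an unadjusted p under 0.05 (2.84% of all genes were lower and 5.14% higher), led by Sqle, squalene epoxidase, at -0.92 ± 0.28 (SE, adjusted p = 0.41 by edgeR). Hsd17b7, which acts in cholesterol synthesis as well as on steroids, had -0.99 ± 0.29 (adjusted p = 0.402 by edgeR). In DKO compared with Dnmt3l KO, the regulators had 6 higher and 0 lower at an unadjusted p under 0.05 (9.99% of all genes were higher and 7.84% lower), among them Igf1r, the receptor of insulin-like growth factor 1, at 1.11 ± 0.23 (SE, adjusted p = 0.0756 by edgeR). In Dnmt3l KO compared with WT the same list had 0 higher and 7 lower (6.24% and 6.69% of all genes). Among the lower ones was Nr4a1, a nuclear receptor induced by luteinizing hormone, at -0.88 ± 0.27 (SE, adjusted p = 0.30 by edgeR). These 2 comparisons share the Dnmt3l KO libraries, so their opposite directions are not separate observations. In DKO compared with WT the regulators had 2 higher and 1 lower at an unadjusted p under 0.05, with a list median of 0.06.

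L/Z spermatocytes are germ cells, sorted by their DNA stain from testes in which adult Leydig cells are arising. In the WT L/Z libraries the mean FPKM was 0.284% of that in WT P0 testes for Hsd17b3, 0.421% for Hsd3b1, 0.773% for Cyp11a1, 1.16% for Cyp17a1 and 1.92% for Insl3. Lhcgr stood at 3.29%, Nr5a1 at 4.54% and Star at 6.35%. Scarb1 stood at 45.2%, and Hsd3b6 at 221%, from few fragments at either stage. The tables of the stages were normalized separately and differ in tissue and read type, so these shares are rough and were not tested. Sertoli cell markers summed to 384 to 1138 CPM in the L/Z libraries, while 13 L/Z spermatocyte markers summed to 3814 and 5326 CPM in WT, 4318 and 6165 in Pld6 KO libraries and 10497 and 9832 in the Dnmt3l KO pair.

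The fragments of the Leydig cell genes were spread unevenly over the L/Z libraries. Cyp17a1 had 48 and 9 fragments in WT, 5 and 10 in Pld6 KO libraries, and 0 and 0 in the Dnmt3l KO pair. Hsd3b6 had 46 and 1 in WT, 3 and 6 in Pld6 KO libraries, and 1 and 2 in the Dnmt3l KO pair. Insl3 had 44.3 and 3.4 estimated fragments in WT, 1.0 and 0.5 in Pld6 KO libraries, and 0 and 1.6 in the Dnmt3l KO pair. WT replicate 1 thus held most fragments of these genes. It also had the highest summed interstitial mesenchyme markers, 369 CPM against 117 in WT replicate 2, 216 and 81.5 in Pld6 KO libraries, and 81.2 and 75.4 in the Dnmt3l KO pair. Hsd3b1 did not share that pattern, with 23 and 49 fragments in WT, 0 and 3 in Pld6 KO libraries, and 0 and 9 in the Dnmt3l KO pair, nor did Cyp11a1, with 26 and 37, 10 and 1, and 0 and 6. The ratio of Hsd3b6 to Hsd3b1 in FPKM was 2.06 in WT replicate 1 and 0.0210 in WT replicate 2, and reads of 50 bp from their shared stretches belong to either gene. Lhcgr had 10 and 3 fragments in WT, 0 and 0 in Pld6 KO libraries, and 0 and 5 in the Dnmt3l KO pair, and Hsd17b3 had 1 to 11 in all 6 libraries.

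**Figure D5:**
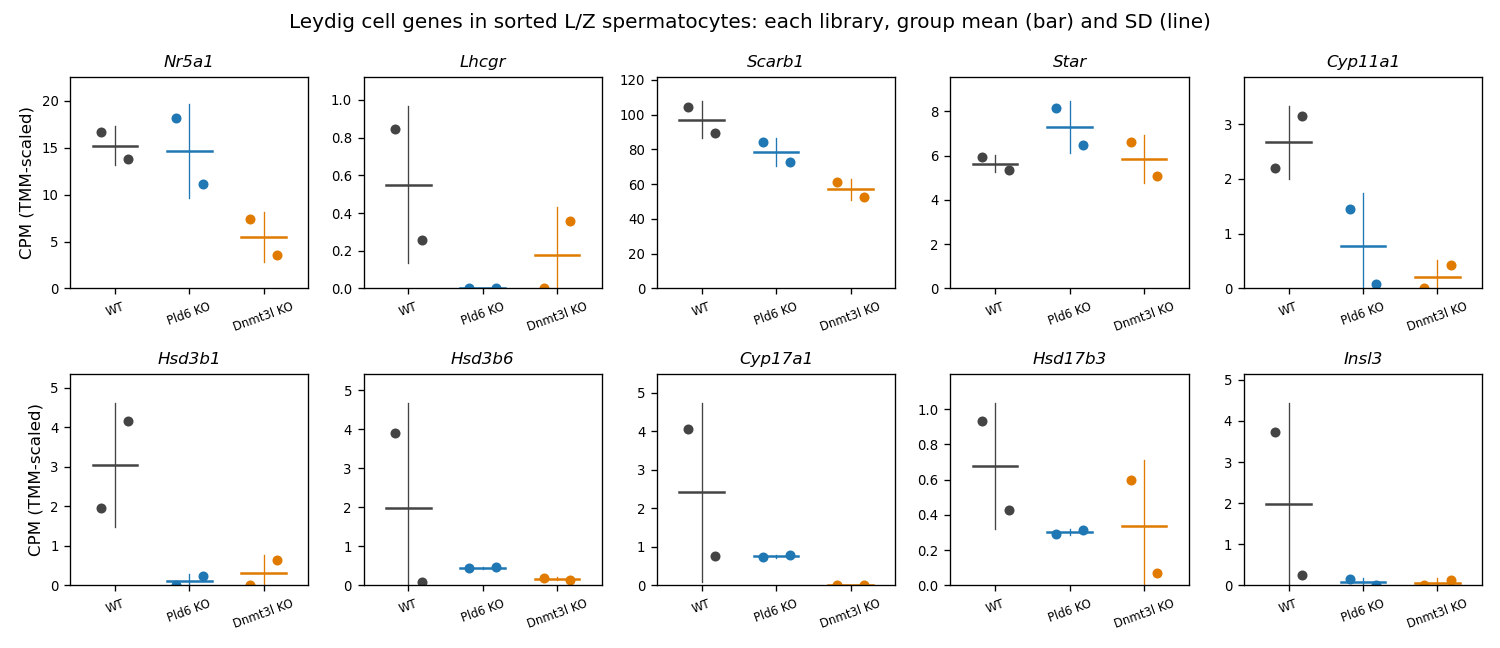
CPM (TMM-scaled, linear axis from 0) of the 10 genes in the 6 L/Z libraries by genotype, with points as libraries, horizontal bars as means and vertical lines as SDs (cut at 0). Cyp17a1, Hsd3b6 and Insl3 have a single high point, WT replicate 1, while Nr5a1 and Scarb1 lie lower in Dnmt3l KO than in WT in both libraries.

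At L/Z, 5 of the 10 genes had enough fragments to be tested (Cyp11a1, Hsd3b1, Nr5a1, Scarb1 and Star), and Nr5a1 alone was called. It fell in Dnmt3l KO compared with WT by 1.54 on the log2 scale (SE 0.41, adjusted p = 0.0468 by edgeR), from 197 and 162 fragments (16.7 and 13.8 CPM) to 37 and 50 (7.40 and 3.58 CPM). Of all 14662 genes tested, 802 (5.47%) were called in this comparison, 1.58% of all as lower, but without Dnmt3l KO replicate 1 a single gene (1) was, and without WT replicate 1 there were 149. Pld6 KO had 125 and 141 fragments (18.2 and 11.1 CPM), and the Dnmt3l KO libraries lay below all 4 others. The adjusted p of Nr5a1 was 0.0112 to 0.123 over the 10 other settings and 0.0227 to 0.189 with a library left out, and the call was lost without WT replicate 1 (0.165) or replicate 2 (0.0539) and without Dnmt3l KO replicate 1 (0.141) or replicate 2 (0.189). Nr5a1 overlaps the antisense gene Nr5a1os, and whether counting used the strand is not given in the sources used here. Sertoli cells express Nr5a1. Their summed markers were 1138 and 872 CPM in WT, 1039 and 761 in Pld6 KO libraries and 916 and 384 in the Dnmt3l KO pair, with 0 of 18 tested called, a median log2 fold change of -1.12 in Dnmt3l KO compared with WT and 8 lower at an unadjusted p under 0.05. The summed spermatocyte markers moved with the same genotype in the other direction, with both Dnmt3l KO libraries above all 4 others. The part of these mixtures in the Nr5a1 value was not tested.

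The other tested genes did not pass the threshold in that comparison. At an unadjusted p under 0.05, 4 of the 5 were lower, as 11.7% of all genes were (26.7% in either direction). Among these, Hsd3b1 and Cyp11a1 met the filter on low counts only through the WT libraries. A lower value than WT was thus largely set in advance for them, and the count of 4 is no result about the genes. Scarb1 had 105 and 89.6 CPM in WT, 84.2 and 72.9 in Pld6 KO libraries and 61.4 and 52.9 in the Dnmt3l KO pair. Its difference between Dnmt3l KO and WT was -0.77 ± 0.21 (SE, adjusted p = 0.0529 by edgeR), with all 4 libraries apart. Hsd3b1 differed by -2.83 ± 0.93 and Cyp11a1 by -3.16 ± 1.09 (adjusted p = 0.0848 and 0.0975 by edgeR), and Star by 0.03 ± 0.38. Without Dnmt3l KO replicate 2, which leaves the library with 0 fragments of each, the values of Hsd3b1 and Cyp11a1 were -7.89 and -7.69, which depend on the prior count and are no bounds, and the highest values with a library left out were -2.19 and -2.62. Libraries were wholly lower in Dnmt3l KO for 4 of the 5 genes, as 27.5% of all genes were (55.7% in either direction). Hsd3b1 and Cyp11a1 are among these, with the same limit from the filter. Cyp17a1, not tested, had 0 fragments in both Dnmt3l KO libraries. Its mean CPM in WT was 5.93-fold that of a floor of 3 counts per Dnmt3l KO library, most of it from WT replicate 1. WT replicate 2 had 9 fragments (0.765 CPM), so the ratio is no lower bound for each library.

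In Pld6 KO compared with WT at L/Z, 0 of the 5 genes were called by edgeR (0.225% of all genes) or by DESeq2, and 1 stood at an unadjusted p under 0.05 (9.17% of all genes). This was Hsd3b1 at -4.27 ± 1.07 (SE, adjusted p = 0.232 by edgeR, -7.92 without Pld6 KO replicate 2, where the library left is at 0, and -3.63 without Pld6 KO replicate 1), whose summed fragments, scaled to library size, gave a ratio of 0.0502 with an exact 95% interval of 0.0101 to 0.153. That interval covers counting error only, not the spread between libraries. Hsd3b1 met the filter on low counts only through the WT libraries, so its lower direction was largely set in advance. An alternative added after seeing the data had a factor for the 2 libraries rich in 45S RNA. There its adjusted p by edgeR was 0.0477 and it was called, among 101 of all 14662 genes. Nr5a1 differed by -0.07 ± 0.38, Scarb1 by -0.31 ± 0.21, Star by 0.37 ± 0.38 and Cyp11a1 by -1.98 ± 0.99 (SE). Between Dnmt3l KO and Pld6 KO 0 were called by edgeR (0.0477% of all genes). DESeq2 called 1, Nr5a1, among 355 of all 14662 genes. Nr5a1 was also the 1 gene at an unadjusted p under 0.05 by edgeR (17.5% of all genes). Its difference was -1.47 ± 0.41 (SE, adjusted p = 0.154 by edgeR).

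Of the pathway lists 16 partners and enzymes, 22 cholesterol genes, 27 regulators and 14 markers were tested at L/Z. Among them 4 genes were called, all in Dnmt3l KO compared with WT, where 5.47% of all genes were called. The count was near that share and is no result about the lists. Akr1c14, 3-alpha-hydroxysteroid dehydrogenase, rose by 2.57 ± 0.65 (SE, adjusted p = 0.0383 by edgeR), from 10 and 4 fragments to 21 and 43, with 10 and 22 in Pld6 KO libraries. Nr2f2, a nuclear receptor of the interstitial cells, fell by 2.19 (SE 0.48, adjusted p = 0.0269 by edgeR), from 159 and 124 fragments to 6 and 51. Cbx2, a Polycomb protein needed for testis formation, fell by 1.06 (SE 0.24, adjusted p = 0.0288 by edgeR). Mvd, an enzyme of cholesterol synthesis, fell by 1.25 (SE 0.29, adjusted p = 0.0313 by edgeR), from 47.4 and 54.0 CPM to 14.8 and 27.0. Nr2f2 is also 1 of the 9 interstitial mesenchyme markers. Akr1c14 stands in both the enzyme and the marker list.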

How the data were processed

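Poly(A) RNA of 17 libraries was prepared with a stranded kit. The authors aligned reads to mm10 with TopHat2 and quantified RefSeq genes with Cuffdiff (versions and use of strand not given in the sources used here). The deposited tables, 1 per stage and normalized separately, hold per gene and library an estimated count of fragments, unscaled, and FPKM, which the authors' Cuffdiff scaled to length and depth. Of the estimated counts, 97.8% (L/Z) and 97.7% (P0) were whole (tolerance 0). Tables number replicates from 0 and labels from 1, and the lower was taken as the lower. Genes without an OK status in a library were left out (6 at L/Z, 2 at P0).

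After rounding, estimated counts entered edgeR 4.0.16 under R 4.3.3 (filterByExpr, TMM, glmQLFit, glmQLFTest) with all groups of a stage in 1 fit, which left 15901 genes at P0 and 14662 at L/Z. Calls needed a Benjamini-Hochberg adjusted p under 0.05 over all genes and a fold over 2 (no fold for the departure from additivity). DESeq2 1.42.0 and limma 3.58.1 were alternatives, with size factors, no filter, compared groups only, a replicate block, each library left out and, added after seeing the data, a GC and length offset and a factor for 45S-rich libraries. The fits were also run on simulated counts with the same spread for every gene. Those lack the differences in spread between these genes, so they do not show how the fits perform on them. Likeness used genes with a mean of at least 50 fragments. The 10 genes, the lists and the rules were chosen with earlier results of these data known. Named from the lists were up to 3 called genes per direction and comparison or, with none called, the 2 with the smallest p, of which 1 regulator is not reported here. No replicate pair agreed within sampling noise. Deviations of same-numbered libraries from their group means had r from -0.332 to 0.485. The highest was between WT and Pld6 KO at L/Z, whose replicates 1 are the 45S-rich libraries. Since r was not over 0.1 in every pair, numbers were not used as pairs.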

Additional observations from a re-analysis of the deposited data

How the results depend on the processing

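At P0, 0 of the 10 genes were called in any of the 6 comparisons under the main fit and under every alternative run, over 124 settings and comparisons. At L/Z the single call, Nr5a1 in Dnmt3l KO compared with WT, depended on the fit. In that comparison 0 genes were called with DESeq2's size factors, with limma on log2(FPKM + 0.1) and with the GC and length offset, 2 without a filter (Cyp17a1 and Nr5a1), 3 with the compared groups only (Cyp11a1, Hsd3b1 and Nr5a1), 2 with a replicate block (Hsd3b1 and Nr5a1) and 0 to 5 when each library was left out. It was 0 without WT replicate 1 and without either Dnmt3l KO library, and 5 without either Pld6 KO library. With limma on log2(FPKM + 1) and with the factor for 45S-rich libraries 1 gene was called, Hsd3b1 in place of Nr5a1. The cause was not tested. In Pld6 KO compared with WT at L/Z that factor called 1 (Hsd3b1), among 101 of all 14662 genes. In Dnmt3l KO compared with Pld6 KO, DESeq2 called 1 (Nr5a1), among 355 of all 14662 genes. In Dnmt3l KO compared with WT, calls over all genes were 1011 of 19905 without a filter. They were 916 of 14217 with the compared groups only and 912 of 14662 with the replicate block. With 0 of the 10 genes called, they were 795 of 14662 (size factors), 664 (limma on log2(FPKM + 0.1)) and 283 (GC and length offset). Which of the 10 genes were tested also changed with the filter and the libraries kept. The moving counts are thus no result about these genes.

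Of 1418 values of the 10 genes under alternatives, 48 changed sign. For 40 of them the value of the main fit was smaller than its SE. Among changes that reversed a value, Hsd3b1 in Dnmt3l KO compared with Pld6 KO at L/Z ran from -3.61 (without Dnmt3l KO replicate 2) to 5.10 with each library left out. At P0, Insl3 in DKO compared with Pld6 KO went to 0.08 with the replicate block and ran from -0.80 to 0.01 (without Pld6 KO replicate 4) with each library left out. Cyp11a1 in DKO compared with Dnmt3l KO ran from -0.86 to 0.15 (without Dnmt3l KO replicate 2), and Lhcgr in Pld6 KO compared with WT went to -0.02 with the replicate block. With the GC and length offset Hsd17b3 went to -0.13 in Dnmt3l KO compared with WT, 0.01 in DKO compared with Dnmt3l KO and 0.11 in the departure from additivity. Of the 10 genes most like the Leydig cell genes, 0 stayed with deviations from genotype means and 4 to 9 when each library was left out (4 without Pld6 KO replicate 3 or 4, 6 without DKO replicate 3).

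Counts over all genes moved more. At P0 they were 0 to 14 over the alternatives (main 1) for Pld6 KO against WT, 0 to 71 (0) for Dnmt3l KO against WT, 2 to 102 (2) for DKO against WT, 0 to 6 (0) for DKO against Pld6 KO, 0 to 258 (12) for DKO against Dnmt3l KO and 0 to 54 (0) for the departure. At L/Z they were 1 to 101 (33), 283 to 1055 (802) and 3 to 355 (7) for Pld6 KO against WT, Dnmt3l KO against WT and Dnmt3l KO against Pld6 KO. With each library left out these 3 ran from 7 to 74, 1 to 1139 and 0 to 215. For Dnmt3l KO against WT the count was 1 without Dnmt3l KO replicate 1, 149 without WT replicate 1 and 575 without Dnmt3l KO replicate 2. For DKO against Dnmt3l KO at P0 it ran from 0 to 121. At L/Z the filter on low counts left Cyp17a1, Hsd3b6, Hsd17b3, Insl3 and Lhcgr untested. Of these, Cyp17a1 was called without the filter. Where leaving out a library let Cyp17a1, Hsd3b6 and Insl3 enter the test, they did so through WT replicate 1, their highest library. A call of them there rests on that library and is no result about the genes.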
